A study of Mus musculus with 18 samples.

Results

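Aldh1a1 and 6 other genes of retinoid metabolism, Aldh1a7, Adh1, Rdh10, Rbp4, Rara, and Rxra, were followed in kidney cortex of 5 mouse strains. They are 7 of the 34509 gene symbols listed for the array, and each is read by 1 probe. Aldh1a1 was chosen by its signals on these arrays, which an earlier analysis had found lower in nephritis-resistant strains, so its differences between resistant and sensitive strains are given as a description, without a p-value. The other 6 genes were chosen by name for their place in the same pathway.

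The mice were 2 months old, with 3 mice per strain. C57BL/6 (B6) and BALB/c mice are labelled resistant, and NZW, DBA1, and 129/svj mice sensitive, to nephritis induced by antibodies against the glomerular basement membrane (anti-GBM). All 15 mice had received the anti-GBM challenge and none was left unchallenged, so a strain difference present before the challenge and a response to it cannot be told apart, and the sex of the mice and the time since the challenge are not given in the sources used here. In these bulk samples fewer cells of a type and less RNA per cell cannot be told apart either. B6 and NZW were deposited in 1 table of Illumina bead array signals and BALB/c, DBA1, and 129/svj in another, no strain is in both, and strains were therefore compared within a table only.

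Retinol, or vitamin A, travels in blood bound to retinol-binding protein 4 (Rbp4) and transthyretin, and the proximal tubule of the kidney takes the filtered complex back up through megalin and cubilin. Inside cells, alcohol and retinol dehydrogenases such as Adh1 and Rdh10 oxidize retinol to retinal, and retinal dehydrogenases, of which Aldh1a1 is one, oxidize retinal to retinoic acid. Retinoic acid binds receptors such as Rara, which pair with retinoid X receptors such as Rxra on DNA. Aldh1a7 is a rodent paralogue of Aldh1a1, named for its sequence, and whether it acts on retinal is not measured by these arrays.

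Aldh1a1 and Aldh1a7 lie close together on chromosome 19, Aldh1a7 being the fourth annotated gene after Aldh1a1, and their starts share a promoter stretch. The 100 bases before a start of each gene are shown because the levels of these 2 genes parted between the strains, although 94 of the 100 bases are identical. The sequences are those of RefSeq for build GRCm38.p6, which is the sequence of B6 mice, and they hold no variant of the other 4 strains. The Aldh1a1 window is chr19:20601868-20601967 on the plus strand and the Aldh1a7 window is chr19:20727557-20727656 on the minus strand, each written 5′ to 3′ with 2 motifs in capitals, first CCAAT and then ATGCAAAT.
Aldh1a1: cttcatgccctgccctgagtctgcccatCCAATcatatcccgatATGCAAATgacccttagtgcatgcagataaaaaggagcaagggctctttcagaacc
Aldh1a7: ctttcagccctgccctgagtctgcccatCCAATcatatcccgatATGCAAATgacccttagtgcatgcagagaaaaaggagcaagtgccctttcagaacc

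The motifs stood at the same places in both windows, with CCAAT beginning 72 bases and ATGCAAAT beginning 56 bases before the start. Counting both strands, CCAAT occurred in 18.9% and ATGCAAAT in 0.645% of 32851 promoter windows of this length. TATAAA, found in 5.56% of windows, and AGGTCA, the half-site of retinoid receptors, found in 5.88%, did not occur in either window, which says only that these letters are not there. The 150 bases further out were 23.3% identical, and the other annotated start of Aldh1a1 was 30.0% identical to Aldh1a7 over its 100 bases. The probe sequences were not analysed here, so cross-hybridization between the paralogues and strain variants under a probe were not tested.

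Of the 7 probes, 5 were matched between the tables and were read in all 15 mice, and those of Adh1 and Rdh10 were read in B6 and NZW only. A probe was called detected in a mouse at a detection p-value of 0.05 or less, and values below are normalized signals on the log2 scale. The arrays detected between 30.5% and 36.4% of their probes, with a median of 36 to 44 beads per probe. All 12 proximal tubule markers measured in B6 and NZW were detected in each of those mice, as were at least 5 of the 6 matched in the other table, among them Slc34a1, the phosphate transporter of that segment. Xist, expressed from the inactive X chromosome, was detected in all B6 and NZW mice, with values of 9.71 to 10.34, and of 5 Y-linked genes 4 (Ddx3y, Eif2s3y, Jarid1d, and Usp9y) were detected in none of them and Uty in all. Mouse 3 of DBA1 stood apart from its strain, its array correlating at 0.957 to 0.960 with those of the other 2 DBA1 mice. Mouse 3 of 129/svj correlated at 0.960 to 0.972 with its strain. These correlations were taken over the probes detected in at least 3 mice of the table. Results that change without DBA1 mouse 3 are given both ways.

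Aldh1a1 was detected in all 15 mice, and in each table the resistant strain was lowest. In B6 its probe (ILMN_1222734) read 7.36, 7.14, and 7.17, and in NZW 8.92, 9.26, and 8.58. B6 was thus lower than NZW in every mouse, by 1.70 on the log2 scale (SE 0.17), a 3.24-fold difference. As deposited, before any correction, the signals were 214.0 ± 22.9 in B6 and 577.3 ± 173.6 in NZW (SD, n = 3).

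In the other table BALB/c read 7.85, 7.81, and 7.80, DBA1 10.33, 10.37, and 9.47, and 129/svj 9.60, 9.90, and 9.56. BALB/c was the lowest strain and did not overlap either sensitive strain. It was 4.71-fold lower than DBA1 (−2.24 on the log2 scale, SE 0.23) and 3.65-fold lower than 129/svj (−1.87, SE 0.23). The deposited signals were 342.1 ± 4.941 in BALB/c, 1225 ± 393.6 in DBA1, and 951.9 ± 99.66 in 129/svj (SD, n = 3).

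The order within that table was BALB/c, 129/svj, and DBA1, and the last 2 did not differ beyond their spread. DBA1 was 0.37 above 129/svj (SE 0.23, limma adjusted p = 0.59), and its mouse 3, at 9.47, lay below all 129/svj mice. Without that mouse the difference was 0.67 with an adjusted p of 0.035. The mice of BALB/c lay within 0.05 of each other, less than the 0.25 to 0.43 by which arrays described as repeats of a mouse differed at this probe. By size, the Aldh1a1 difference ranked 353rd of 16756 tested probes in B6 against NZW. It ranked 122nd of 15818 in BALB/c against DBA1 and 197th in BALB/c against 129/svj. Since the gene was chosen by these differences, its ranks are a description only.

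**Figure D1:**
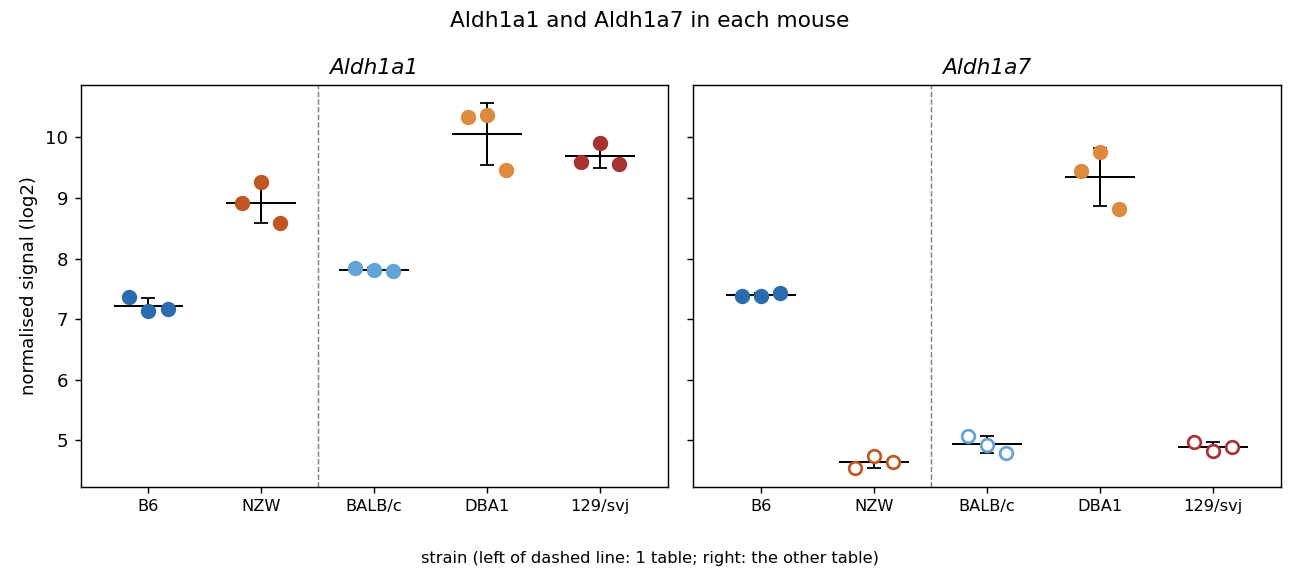
Normalized log2 signal (y axis) of Aldh1a1 and Aldh1a7 in each mouse, by strain (x axis), with the mean and SD of 3 mice; filled points were detected and open points were not, and the dashed line separates the 2 tables. Aldh1a1 is low in B6 and BALB/c, whereas Aldh1a7 is detected in B6 and DBA1 and lies between 4.54 and 5.08 in the other 3 strains.

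Aldh1a7 did not follow the division into resistant and sensitive strains. It was detected in all mice of B6, a resistant strain, and of DBA1, a sensitive strain, and in no mouse of NZW, BALB/c, or 129/svj. In B6 its probe (ILMN_1218981) read 7.38, 7.39, and 7.44, against 4.54, 4.74, and 4.65 in NZW. In DBA1 it read 9.44, 9.76, and 8.82, against 5.08, 4.92, and 4.80 in BALB/c and 4.97, 4.83, and 4.89 in 129/svj. The detected and undetected strains were far apart, with no overlap in either table.

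Since the lower strains were below detection, the fold changes are lower bounds, set against the weakest signal that counted as detected on the same arrays. The probe was tested only because B6 and DBA1 detected it, so no p-value is given for its differences. Aldh1a7 was at least 4.23-fold higher in B6 than in NZW. In DBA1 it was at least 12.6-fold higher than in BALB/c and at least 12.8-fold higher than in 129/svj. These bounds hold only for the background correction used here, with its offset of 16. With an offset of 50 the same differences were smaller than the bounds, at 1.78, −3.40, and 3.42 on the log2 scale. Without background correction they were also smaller, at 1.79, −2.65, and 2.66, and all kept their direction. BALB/c and 129/svj, both below detection, give no fold. The resistant strain was the higher one in B6 against NZW and the lower one in BALB/c against DBA1, so that DBA1 alone carried the opposite direction. The contrast of the 2 resistant against sensitive differences, fitted over all 15 mice, was −4.80 (SE 0.25). It includes signals below detection in 3 strains, so its size is not exact, and it was −2.90 without background correction.

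These values are read against how often probes behaved in this way. At an adjusted p below 0.05, 18.9% of the tested probes were called in B6 against NZW (9.25% higher and 9.61% lower in B6), 5.75% in BALB/c against DBA1 (2.86% higher and 2.89% lower in BALB/c), 4.83% in BALB/c against 129/svj (2.47% higher and 2.36% lower in BALB/c), 4.49% in DBA1 against 129/svj, and 10.4% in the contrast of the 2 differences. Detection in all mice of B6 and none of NZW was seen for 360 of 16756 tested probes (2.15%). Detection in all mice of DBA1 and in none of BALB/c and 129/svj was seen for 49 of 15818 (0.31%), and a probe needs detection in at least 3 mice to be tested at all, so Aldh1a7 entered each test through the strain in which it was high.

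The 2 genes thus separated in both directions. In B6 the Aldh1a7 probe was detected where Aldh1a1 was at its lower level, and in NZW and 129/svj Aldh1a7 was below detection where Aldh1a1 was at its higher level. DBA1 was high for both, and BALB/c was low for Aldh1a1 and below detection for Aldh1a7. In DBA1 mouse 3 was the lowest of its strain for both probes.

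**Figure D2:**
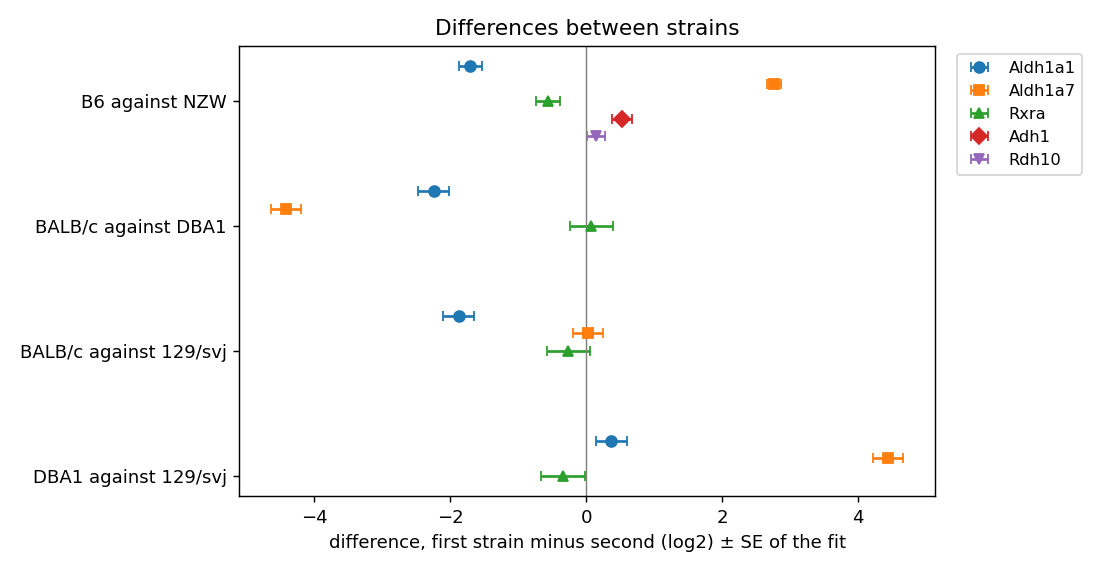
Differences between strains (x axis, first strain minus second on the log2 scale, ± SE of the fit) for the 5 genes that were tested, by comparison (y axis); Adh1 and Rdh10 were read in B6 and NZW only. Aldh1a1 lies at −1.70, −2.24, and −1.87 in the 3 comparisons of a resistant with a sensitive strain, whereas Aldh1a7 lies at 2.76, −4.41, and 0.03, and those 3 values are fitted means that include signals below detection.

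Among the enzymes that oxidize retinol, Adh1, the cytosolic alcohol dehydrogenase, was higher in B6 than in NZW. Its probe (ILMN_1258501) read 10.84, 10.54, and 10.45 in B6 and 10.18, 9.82, and 10.25 in NZW, so that the groups did not overlap. The difference was 0.53 (SE 0.15), or 1.44-fold, with a limma adjusted p of 0.045. That call rested on every mouse, since leaving out any 1 of the 6 gave adjusted p-values of 0.056 to 0.15, and it was also lost with a replicate block (adjusted p = 0.051). Rdh10, the membrane-bound retinol dehydrogenase, read 7.39, 7.32, and 7.08 in B6 and 6.96, 7.20, and 7.20 in NZW (ILMN_1255135). These groups overlapped, and the difference of 0.15 (SE 0.13, adjusted p = 0.47) was within the spread between mice.

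Of 9 adipocyte markers measured in B6 and NZW, 5 were tested, and 1, Cfd, the adipocyte protease adipsin and the most abundant of them, was higher in B6 (3.98 on the log2 scale, SE 1.08, adjusted p = 0.035). The other 4 did not pass (adjusted p 0.14 to 0.19). The summed level of the 9 was 1112, 8005, and 972 in the 3 B6 mice and 735, 285, and 272 in the NZW mice, so that B6 mouse 2 was highest, whereas for Adh1 it was in the middle of its strain. The adipocyte markers Fabp4, Retn, and Lep were detected in no mouse of either strain. In the same comparison 3 of 12 proximal tubule markers fell in B6, namely Slc5a12 (−1.34), Fbp1 (−0.63), and Miox (−0.40), the most abundant of the list, and their summed level was 91807 to 103395 in B6 and 113599 to 120708 in NZW. Of 7 macrophage markers tested, C1qb (1.02) and Ms4a7 (1.06) were higher in B6. Of 5 tubule injury genes tested, Lcn2 (1.80), Spp1 (0.69), and Timp1 (1.86) were higher in B6 and Havcr1, the kidney injury molecule, fell by 2.77, with 7.92, 7.53, and 5.40 against 10.27, 9.04, and 9.85. In the other table none of the tested proximal tubule, macrophage, adipocyte, or injury markers passed the limma threshold between any 2 strains, whereas Pvalb, of the distal tubule, was 3.25 higher in BALB/c than in DBA1 (adjusted p = 0.031) and Hsd17b2, a sex-dependent gene, fell by 1.35 in BALB/c against 129/svj (adjusted p = 0.015). In B6 against NZW, Pvalb fell by 2.38 and Hsd17b2 by 0.63, the distal Slc12a3 (1.46), the endothelial Ehd3 (1.84), and the sex-dependent Cyp2d9 (1.72) were higher, and the podocyte gene Ptpro fell by 0.60. Beside these counts, 9.25% of all tested probes were called higher and 9.61% lower in B6 against NZW. The part of these cells, of sex, and of injury in the results was not tested.

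Rxra, the partner of the retinoic acid receptors, was detected in all 15 mice. In B6 it read 6.85, 6.99, and 6.89 and in NZW 7.36, 7.88, and 7.17 (ILMN_2741479). B6 was lower in every mouse, by 0.56 (SE 0.18), but the limma adjusted p of 0.060 missed the threshold, and without NZW mouse 3 it was 0.034 for a difference of −0.71. Rxra also passed with the replicate block (adjusted p = 0.047), 75th percentile scaling (0.037), no background correction (0.048), and an offset of 50 (0.047), and not under the other 5 alternatives that kept all mice. In the other table Rxra read 7.20, 6.96, and 6.84 in BALB/c, 6.28, 6.70, and 7.78 in DBA1, and 7.37, 7.13, and 7.28 in 129/svj. The DBA1 mice spread over a wider range than the other strains, with mouse 3 highest. None of these comparisons passed the threshold (adjusted p between 0.77 and 0.93), and without DBA1 mouse 3 DBA1 was 0.77 below 129/svj with an adjusted p of 0.045.

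Rara, a retinoic acid receptor, and Rbp4, the retinol carrier of blood, were detected in none of the 15 mice and were not tested. Rara (ILMN_2661242) lay between 4.59 and 5.33, and Rbp4 (ILMN_1252185) between 4.59 and 5.21. The strains of each table overlapped for both probes, and a difference was not detectable at this level.

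**Figure D3:**
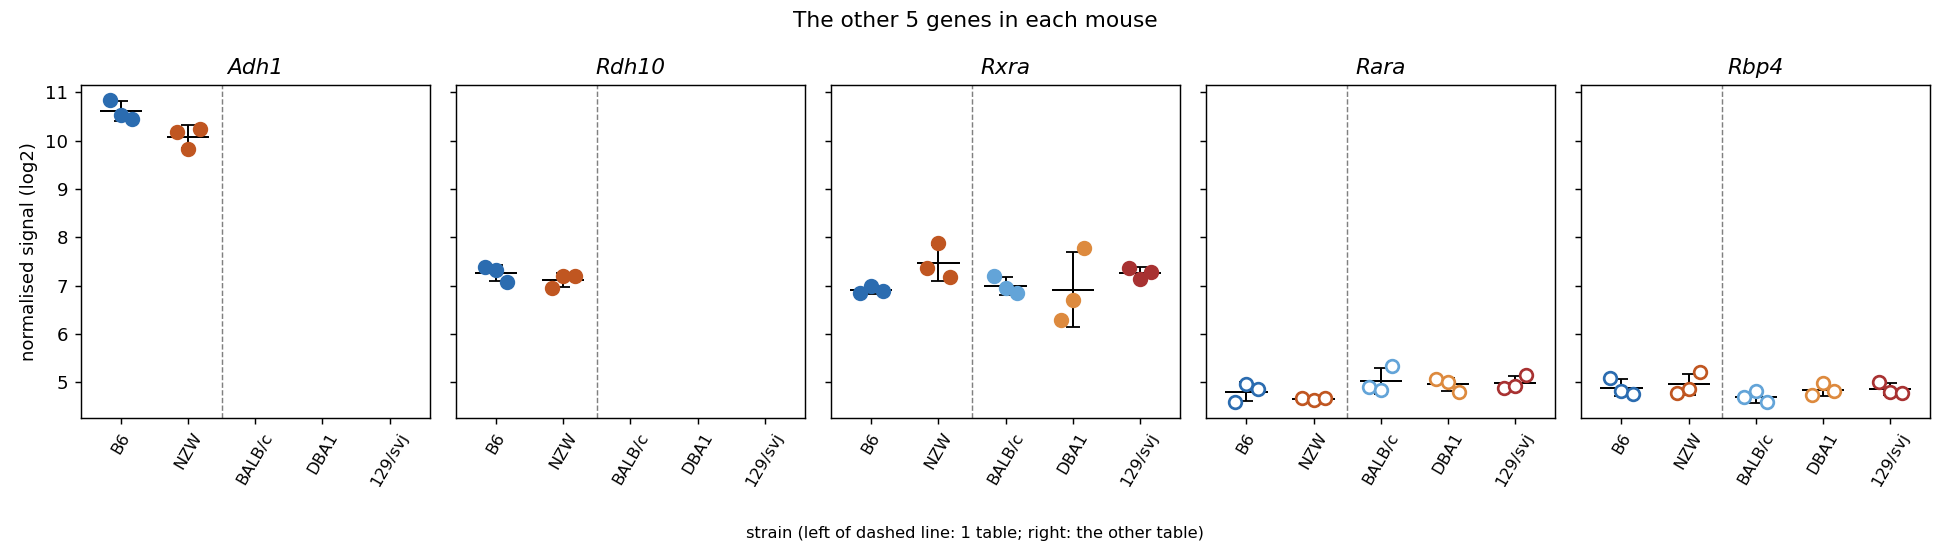
Normalized log2 signal (y axis) of Adh1, Rdh10, Rxra, Rara, and Rbp4 in each mouse, by strain (x axis), with the mean and SD of 3 mice; filled points were detected, open points were not, and Adh1 and Rdh10 have values in B6 and NZW only. Adh1 is higher in B6, DBA1 mouse 3 is the highest DBA1 value of Rxra, and all points of Rara and Rbp4 are open.

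The rest of the pathway was read through 8 lists of 95 genes, with the brightest probe of each gene. In B6 against NZW 84 were measured and 54 tested, of which 1 was higher in B6, 10 were lower, and 43 did not pass. The share called was 20.4%, against the 18.9% of all tested probes, and the calls among all probes were 49.0% higher in B6. The median difference over the 54 genes was −0.18, beside −0.04 over all tested probes. With arrays scaled to their 75th percentile, which put that median of all probes at −0.13, 1 pathway gene was higher and 20 were lower in B6, and 37.3% of the calls among all probes were higher in B6. With the matched probes of both tables normalized together that share was 59.7%, and of the 19 pathway genes then tested 1 was higher and 1 lower.

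Of the genes of retinol entry and storage, Lrat, which esterifies retinol for storage, fell by 1.28 in B6 (SE 0.12, adjusted p = 0.00012), with 6.42, 6.27, and 6.57 against 7.61, 7.80, and 7.68 in NZW. In binding and transport, Ttr, which is transthyretin, fell by 0.90 and the endocytic receptor Cubn, cubilin, by 0.60, whereas megalin, Lrp2, was −0.16 (adjusted p = 0.43). Among the enzymes between retinol and retinal, Rdh9 was 1.01 higher in B6 (adjusted p = 0.00051) and Rdh16 fell by 0.82 (adjusted p = 0.00067), while the other 6 of 8 tested did not pass.

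None of the 3 genes tested in the list of retinal oxidation, which leaves out Aldh1a1, passed the limma threshold, and Aldh8a1 was −0.27 (adjusted p = 0.11) and Aldh1a3 −0.93 (adjusted p = 0.079). Cyp26b1, which breaks down retinoic acid, read 9.99, 9.33, and 9.08 in B6 and 9.52, 9.75, and 10.28 in NZW, and the groups overlapped (adjusted p = 0.36). In the list of receptors and partners, 3 of 12 tested genes fell in B6 and none rose. Of all tested probes, 9.61% were called lower and 9.25% higher in B6, and an excess in this short list was not tested. These were Ppara, the receptor of fatty acids, by 1.23, Rxrg, a retinoid X receptor, and Rarb, a retinoic acid receptor, by 0.54. Rxrg was below detection in B6 and was at least 1.52-fold higher in NZW. The call of Rarb was lost without B6 mouse 2 or 3 or NZW mouse 1 or 3 (adjusted p 0.054 to 0.098).

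Of the 9 genes known as retinoic acid targets that were tested, Stra13 fell by 0.60 in B6, and the other 8 did not pass. The call of Stra13 was lost without B6 mouse 1 (adjusted p = 0.056). Among 10 other aldehyde dehydrogenases tested, Aldh1b1 and Aldh3a1 fell in B6, Aldh3a1 by 1.02, a call lost without B6 mouse 1 or 3 or NZW mouse 1 (adjusted p 0.055 to 0.076). Aldh1b1, a mitochondrial enzyme, was detected in all NZW mice and in no B6 mouse, and was at least 2.85-fold higher in NZW. Aldh1b1 and Rxrg, like Aldh1a7, entered the test only through the strain that detected them. Aldh2, the main mitochondrial acetaldehyde dehydrogenase, was 0.07 (adjusted p = 0.71).

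**Figure D4:**
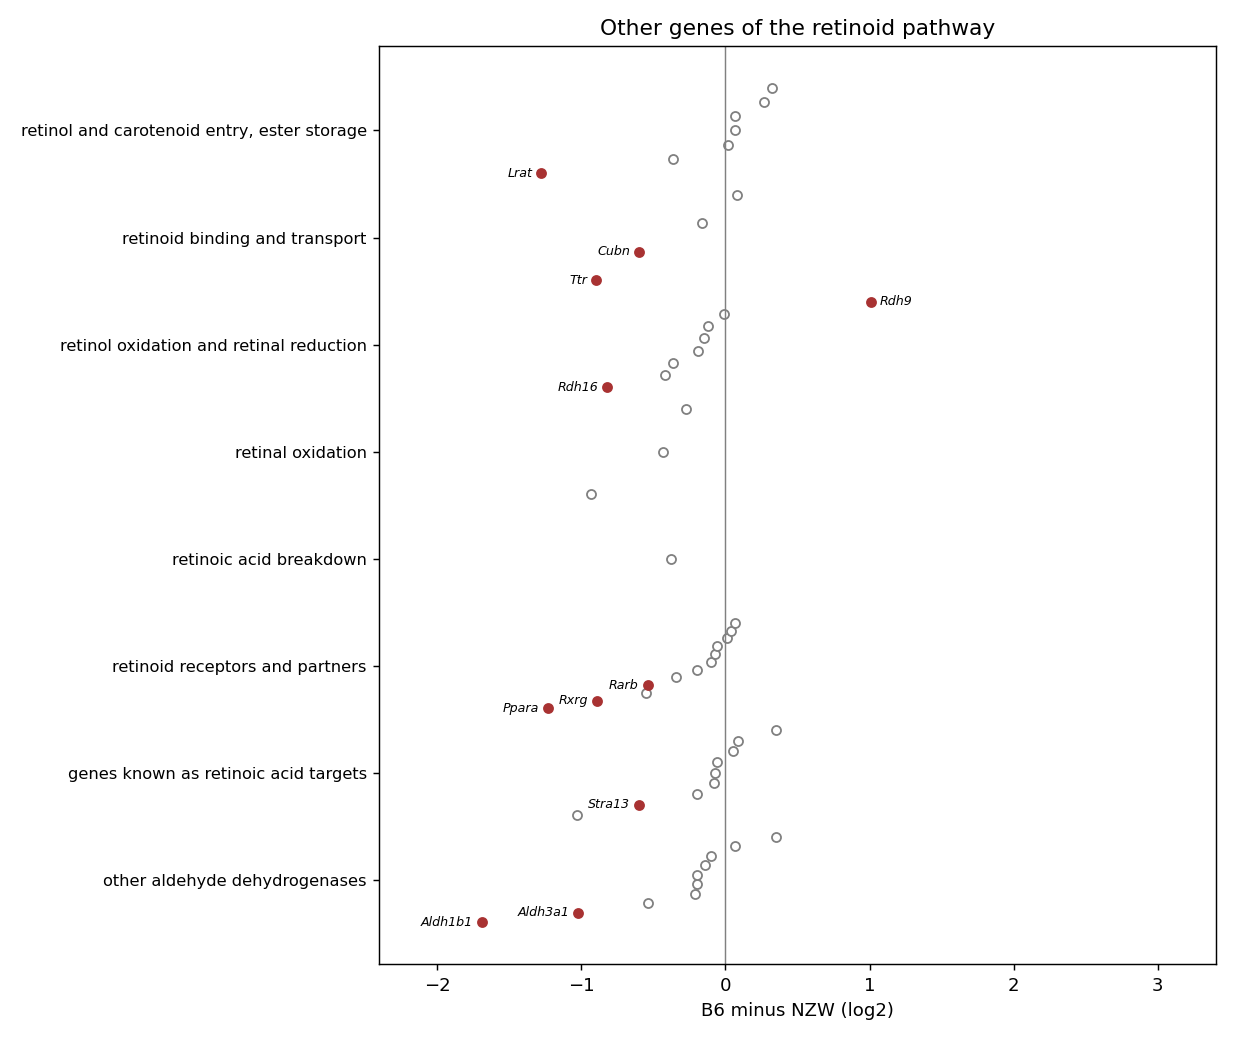
Difference between B6 and NZW on the log2 scale (x axis) of the 54 tested pathway genes, by list (y axis); each point is a gene, and filled points with names passed an adjusted p of 0.05. The named gene right of 0 is Rdh9, and the other 10 named genes lie left of it.

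In the table of BALB/c, DBA1, and 129/svj, 34 pathway genes were measured and 18 tested. In BALB/c against DBA1, 1 was higher and 1 lower in BALB/c, which is 11.1% against 5.75% of all probes, and in BALB/c against 129/svj 1 was higher and none lower, which is 5.56% against 4.83%. Lpl, the lipase that also frees retinol from chylomicron esters, was higher in BALB/c, with 7.53, 7.31, and 7.78, than in DBA1, with 6.20, 5.69, and 5.76 (1.66, SE 0.20, adjusted p = 0.00065). In 129/svj Lpl was below detection, so that BALB/c was at least 3.67-fold higher (adjusted p = 4.1e-05). Lpl has a second probe, brighter and read in B6 and NZW only, and there the probes disagreed, with 0.07 (adjusted p = 0.82) for the brighter one and 1.07 (adjusted p = 0.020) for the one matched in both tables. The carotenoid-cleaving Bcdo2 was below detection in BALB/c and at least 1.23-fold higher in DBA1. It entered the test only through DBA1 and 129/svj, where it was higher, so its p-value is not given and its call, the 1 lower above, is a description. That call was lost without DBA1 mouse 1 or 3, 129/svj mouse 1, or any 1 BALB/c mouse (limma adjusted p 0.053 to 0.13). Without DBA1 mouse 3, 1 of the 18 genes was called. Adipoq, the only adipocyte marker matched in this table, read 5.59, 5.64, and 9.06 in BALB/c, 6.90, 6.85, and 8.65 in 129/svj, and was below detection in DBA1. BALB/c mouse 3 was thus the highest of its strain for both Adipoq and Lpl, and the part of fat cells in the result was not tested.

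In DBA1 against 129/svj, the 2 sensitive strains of that table, limma called 0 of the 18 pathway genes, beside 4.49% of all probes. There were 2 at an unadjusted p below 0.05, the gene-by-gene test named in the study's methods gave 2 at that level and 0 after adjustment, and limma called 1 without DBA1 mouse 3, Tgm2, 1 without 129/svj mouse 3, Egr1, and 1 with the replicate block, Lpl.

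The genes beside Aldh1a1 on its chromosome gave few values. Of the 10 annotated neighbours, 5 on either side, 7 had a probe, and apart from Aldh1a7 only Anxa1 and E030003E18Rik were detected in at least 3 mice of a table. E030003E18Rik was −0.17 in B6 against NZW (adjusted p = 0.35). Anxa1, annexin A1, was −1.16 in BALB/c against DBA1 (adjusted p = 0.14) and −0.60 in BALB/c against 129/svj (adjusted p = 0.55), and was detected in 5 of the 9 mice of that table and none of B6 and NZW.

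The probes whose values lay closest to those of Aldh1a1 were found among 4756 probes tested in both tables, by the root mean square difference over 15 mice after centring each table. They were Slc24a3, a sodium and calcium exchanger, at 0.46, Cyp4a12a, a fatty acid hydroxylase, at 0.47, the carboxylesterase Ces3 at 0.51, Fgd2 at 0.53, and Atp6v1d, a proton pump subunit, at 0.57. The root mean square of Aldh1a1 itself about the table means was 0.96. Slc24a3 was −1.43 in B6 against NZW and −1.85 in BALB/c against DBA1, whereas Atp6v1d was −0.05 and −2.09, so that its likeness came from the table of BALB/c. All of these values share arrays and normalization with Aldh1a1, and none was tested for likeness.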

How the data were processed

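Total RNA of kidney cortex was hybridized to Illumina bead arrays. The authors deposited 2 tables of non-normalized signal intensity, each with a detection p-value, a bead standard error, and a bead count (unit other) per probe and array; no aligner or genome build applies, and the scanner software is not given in the sources used here. The 18 arrays came from 15 mice, and the 3 repeat arrays, 1 per strain in the table of DBA1, have titles numbered 4 but descriptions that call them replicates of mouse 1, and were averaged with that mouse's other array; whether the same RNA extract was used is not given. Whether mice were housed or processed together is not given. The p-values set a strain difference against the spread between mice within strains, so any handling shared by the mice of a strain cannot be told apart from strain. The first table holds 46632 probes and the second 46147, and 19886 were matched.

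Intensities were background-corrected within a table (nec of limma 3.58.1 in R 4.3.3, offset 16, from the detection p-values), quantile-normalized, and log2-transformed. Probes detected in at least 3 mice, 16756 and 15818, were fitted with lmFit and eBayes with 1 coefficient per strain, and p-values were Benjamini-Hochberg adjusted over each table. The contrast of the 2 resistant against sensitive differences used 6896 matched probes normalized together. The fits were tested on simulated data. The study's methods name Student's t-test, which was run as an alternative. Precision was limited by 3 mice per strain, and the bead standard error was 2.85% to 6.05% of the signal for Aldh1a1.

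The genes and lists were chosen with earlier results of these data known, and a few listed genes are not reported here. Pathway genes are named if called in B6 against NZW or in BALB/c against both other strains, with at most 3 per list and comparison; Bcdo2, Tgm2, Egr1, and genes given as not called were chosen after their values were seen. Gene names, gene order, and promoters are from RefSeq tables of GRCm38.p6. Mice carried equal numbers in the labels, but of 12 pairs of equal number 4 correlated above 0.1 (−0.26 to 0.39), so the numbers were not taken as pairs.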

Additional observations from a re-analysis of the deposited data

Results flagged for a closer look

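By the limma test of that difference itself, the difference between resistant and sensitive strains differed between the 2 tables for 2 of 20 pathway genes outside the 7. This is 10% beside 10.4% of all probes. Of the 7 genes, 3 had a contrast, namely Aldh1a1, Aldh1a7, and Rxra. Aldh1a1 was chosen by these differences, so its contrast of −0.49 (SE 0.29) is given as a description. The contrasts come from both tables normalized together and the differences within a table from each normalized apart, so the latter do not subtract exactly to the former. Aldh1a7 was fitted only because B6 and DBA1 detected it, so no p-value is given for it. For Aldh1a7 the contrast, (BALB/c minus the mean of DBA1 and 129/svj) minus (B6 minus NZW), was −4.80, with 3 strains below detection. For Lpl it was 1.26 (adjusted p = 0.02), with the matched probe 1.07 higher in B6 than in NZW and 2.03 higher in BALB/c than in the mean of DBA1 and 129/svj, whereas the brighter probe, in B6 and NZW only, gave 0.07 (adjusted p = 0.82). For Rdh9 it was −0.79 (adjusted p = 0.027), with 1.01 in B6 against NZW and −0.01 in BALB/c. For Rxra it was 0.48 (SE 0.38, adjusted p = 0.55). The tables differ in strains and in deposit, and these cannot be told apart as the source of a difference between them.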

How the results depend on the processing

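Rara and Rbp4 were not tested, and the other 5 genes gave 308 differences under alternatives. Of these, 281 kept direction and side of the threshold, or for Aldh1a1 moved by less than the SD between mice. The 281 include Aldh1a7, whose side says nothing, since detection chose it. Aldh1a1 without background correction was −1.37 in B6 against NZW, −1.81 in BALB/c against DBA1, and −1.47 in BALB/c against 129/svj (−1.72 with an offset of 50). Leaving out 1 mouse gave −1.87 to −1.51, −2.54 to −2.08, and −1.93 to −1.76 in these comparisons, and 0.21 to 0.67 in DBA1 against 129/svj. Adh1 lost its call with 75th percentile scaling (0.37), without a filter, with the replicate block, and with Student's t-test (0.53 each), and without 1 mouse it was 0.40 to 0.61. Aldh1a7 in BALB/c against 129/svj, below detection in both, was −0.05 without repeat arrays, and −0.04 to 0.10 without 1 mouse. Its other differences kept direction wherever tested. The smallest in B6 against NZW was 1.78 (offset of 50). Without background correction they were −2.65 in BALB/c against DBA1, 2.66 in DBA1 against 129/svj, and −2.90 for the contrast. Aldh1a7 was not fitted where filtered out, as within a table without 1 B6 or DBA1 mouse. Rxra in BALB/c against DBA1 was −0.02 without repeat arrays and −0.24 to 0.51 without 1 mouse. In B6 against NZW it passed under 4 of 9 other alternatives.

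Student's t-test called 1851 probes after adjustment in B6 against NZW in place of 3161, and 398, 319, 217, and 294 in BALB/c against DBA1, BALB/c against 129/svj, DBA1 against 129/svj, and BALB/c against the mean of the last 2, in place of 909, 764, 711, and 950. For the 294, Student's t-test took the DBA1 and 129/svj mice as 1 group, so differences between those strains counted as spread, unlike in limma. Matched probes normalized together gave 677 in B6 against NZW, of 6896 tested. Probes detected in every mouse gave 587, 466, 368, and 576 in the second table, and 380 in place of 714 for the contrast of the 2 differences. Leaving out 1 mouse gave 1740 to 2634, 452 to 1169, 442 to 950, 426 to 736, 453 to 1068, and 467 to 833 in the same order. Counts moved by over 1.5 times without any 1 B6 mouse in B6 against NZW (1883, 1740, and 1891), without any 1 BALB/c mouse in its 3 comparisons, and without DBA1 mouse 2 (540 and 458 against BALB/c and 129/svj), 129/svj mouse 1 (490 and 426 against BALB/c and DBA1), or, for the contrast, B6 mouse 2. The replicate block gave 2627 in B6 against NZW. Among the 5 tested genes, it changed only the calls of Adh1 (lost) and Rxra (gained, −0.56, limma adjusted p = 0.047) in B6 against NZW. Pathway calls, recounted under alternatives chosen after seeing the data, ranged from 2 to 21 in B6 against NZW, from 0 to 3 in BALB/c against DBA1, from 0 to 3 in BALB/c against 129/svj, and from 0 to 1 in DBA1 against 129/svj. Under Student's t-test the calls of Ttr (adjusted p = 0.061), Ppara (0.075), Stra13 (0.064), Rarb (0.09), and Aldh3a1 (0.15) in B6 against NZW and of Lpl (0.052) and Bcdo2 (0.12) in BALB/c against DBA1 were lost, as was that of Cubn (0.26) with matched probes normalized together and that of Aldh3a1 without a filter (0.07). Bcdo2 also lost its call without a filter (0.062), with 75th percentile scaling (0.055), with an offset of 50 (0.054), and without repeat arrays (0.050).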
